A study of Pistacia vera with 20 samples.

Results

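Genes annotated as terpene synthases, together with genes that make the prenyl diphosphates these enzymes use, were taken from the annotation of the pistachio gene table. A gene was included when its description held a terpene synthase N-terminal domain (Pfam PF01397), a terpene synthase metal-binding domain (PF03936), or the words for HMG-CoA reductase, for 1-deoxy-D-xylulose enzymes, or for geranyl, farnesyl or geranylgeranyl diphosphate synthases. The rule took 115 of 39783 genes, 97 by a domain and 18 by words, and it used no measured value. The wordings searched for HMG-CoA reductase and geranyl diphosphate synthase matched 0 genes, so no gene entered through them. By their closest named protein, 94 of the genes were terpene synthases, of which 36 carried monoterpene synthase names, 35 sesquiterpene names, 11 diterpene names, 4 nerolidol or geranyllinalool names and 8 only a number. A further 18 were supply genes, and 3 carried domains but the name of another kind of protein or none. These names come from the best-matching protein of another species and do not show which product a pistachio enzyme makes. The gene identifiers of the table begin with evm_TU_, which is left out below.

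The study sequenced polyadenylated RNA of the hull, the outer fleshy coat of the pistachio fruit (exo-mesocarp), from orchard-grown trees of the cultivars Golden Hills and Lost Hills. Intact hulls of each cultivar were sampled at 91 d after anthesis (4 libraries per cultivar) and at 133 d (3 per cultivar). At 133 d there were also 3 libraries of tattered Golden Hills hulls and 3 of cracked Lost Hills hulls, so the kind of split and the cultivar cannot be told apart. The series' title places the study in the context of hull splitting, and the labels name no transgene, knockout or treatment. The labels number the biological replicates but do not say which trees they came from, so p-values measure the spread between these libraries.

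Each library held 16116971 to 18609861 reads assigned to genes. The cultivar labels were checked with 12 genes that had at least 5 FPKM in every Lost Hills library at 133 d and at most 3 reads in any Golden Hills library of that age, and with 14 genes of the reverse kind. No terpene gene was among them. In Golden Hills replicate 2 at 91 d more than 3 reads were found for all 12 Lost Hills genes, whose median was 27.1% of that in Lost Hills, and in replicate 3 for 11 of them, with a median of 9.15%. All 14 Golden Hills genes had more than 3 reads in Lost Hills replicate 2 at 91 d, at 36.9% of their Golden Hills level. In the other 91 d libraries the median was 1.18% or less. These 3 libraries at 91 d thus held reads at genes that marked the other cultivar at 133 d. The main counts with age are also given without both libraries labelled replicate 2, and without all 3.

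Terpenes are built from isoprene units, which plants make by the mevalonate route in the cytosol and by the methylerythritol route in plastids. 1-Deoxy-D-xylulose-5-phosphate synthase (DXS) and reductoisomerase (DXR) carry out the first steps of the plastid route, and prenyl diphosphate synthases join the units into geranyl, farnesyl and geranylgeranyl diphosphate. Terpene synthases then turn these precursors into monoterpenes, sesquiterpenes and diterpenes, the volatile and resinous compounds of the Anacardiaceae, the plant family of pistachio.

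Most of the terpene synthase genes were silent in hulls or nearly so. No read was assigned to 44 of the 94 in any of the 20 libraries, and over the 115 genes 50 (43.48%) had none, beside 29.86% of all genes in the table. A level of at least 1 FPKM (fragments per kilobase of gene, scaled to the library's size) in at least 3 libraries was reached by 26 terpene synthases and 9 supply genes. That is 30.43% of the 115 genes and 49.56% of all genes. The sesquiterpene names held the most silent genes, with 22 of 35 unread and 4 past the filter, while 13 of 36 genes with monoterpene names were unread and 15 passed. A mean of 5 FPKM or more over all libraries was reached by 10 terpene synthases and 7 supply genes.

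The silent genes were often short models. Among the 94 terpene synthases, 64 held both domains, and 24 of these had no read and 21 passed the filter. Of 12 models with the N-terminal domain alone, 9 had no read, and of 18 with the metal-binding domain alone, 11 had none. The median length was 1642.5 bases with both domains, 439.5 with the N-terminal domain alone and 601.5 with the metal-binding domain alone. Unread models had a median of 832.5 bases, beside 1641 for those that passed. Whether such models are complete genes was not tested.

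The genes lay close together. When members of the same contig with at most 100 kb between neighbours were joined, 89 of the 115 fell into 22 groups of up to 12 genes. Contig ptg000017l carried 41 terpene synthases, 19 of which passed the filter, and contig ptg000009l carried 23, of which 3 passed. A group of 8 on ptg000017l, from position 17298480 to 17768051, held 6 genes past the filter and none without reads, and a group of 10 on the same contig (38191306 to 38375190) held 5 past the filter and 3 without reads. By contrast, the 12 genes of the largest group, on ptg000009l from 29767928 to 30070745, included 7 without reads and 1 past the filter, and 6 genes named germacrene D synthase on ptg000022l (5535820 to 5693328) all had no read. Copies this close may share reads, and how the counting treated reads with several matches is not given in the sources used here, so levels of neighbouring copies are uncertain. Positions are those of the deposited table, whose genome build is not given in the sources used here.

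**Figure D1:**
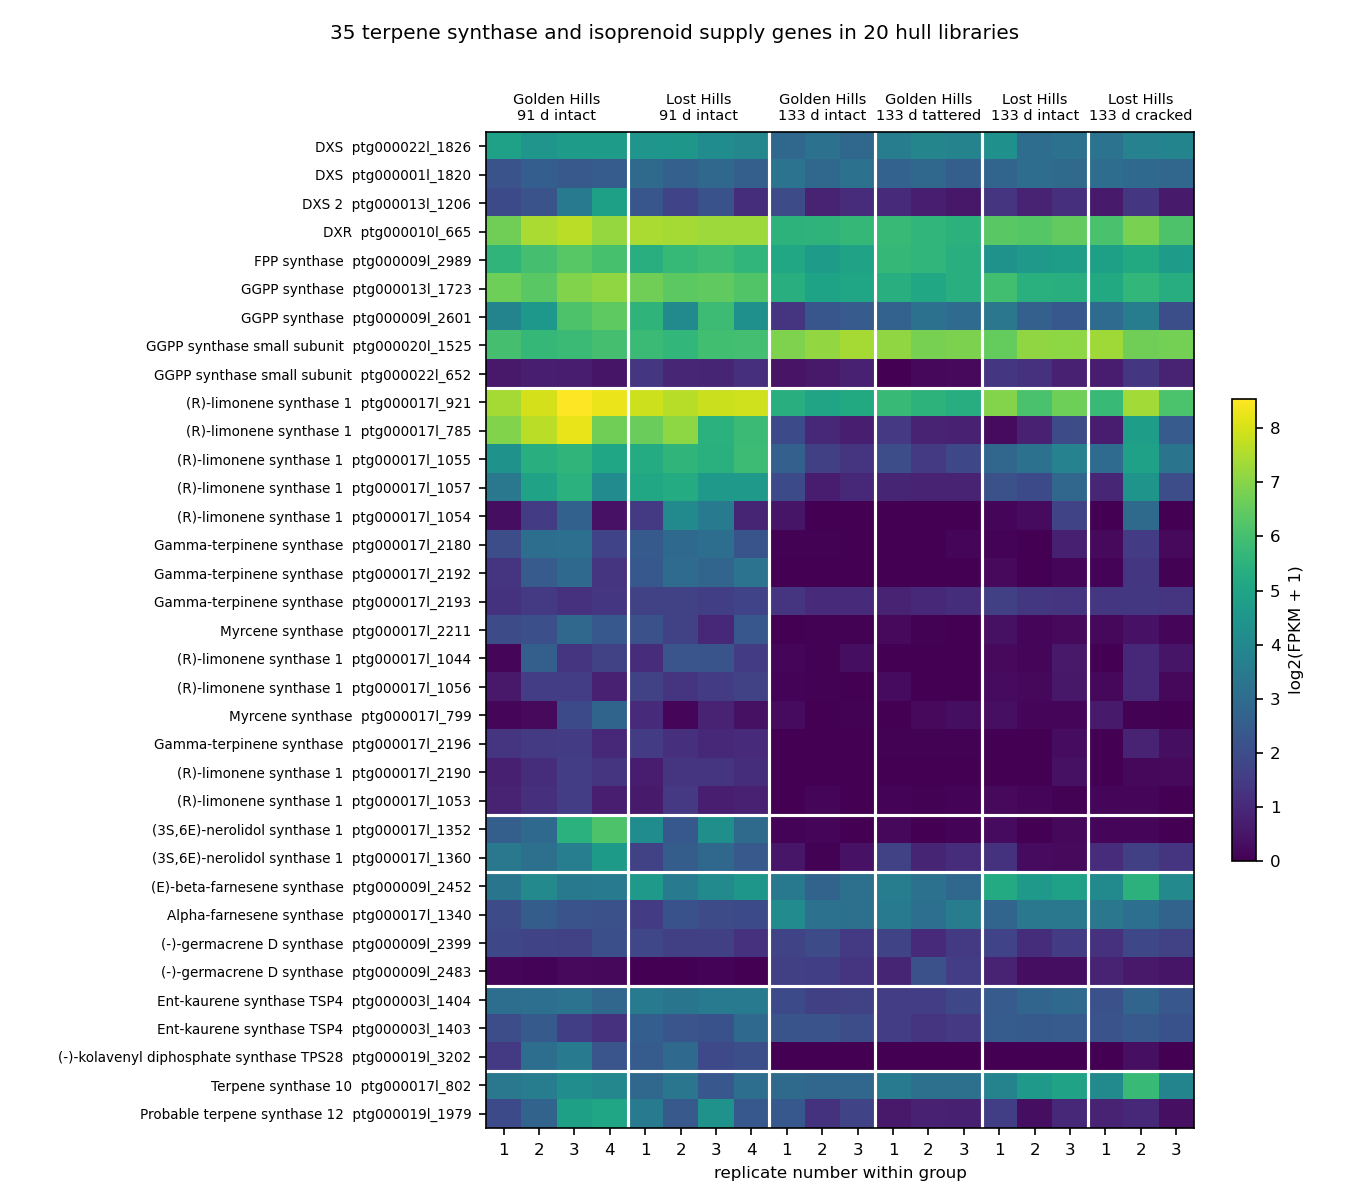
Level of each of the 35 genes that passed the expression filter (rows, by role) in each of the 20 libraries (columns, by group and replicate number), with brighter colour for a higher log2(FPKM + 1). Most rows with monoterpene and nerolidol synthase names are brighter at 91 d than at 133 d, and a limonene synthase gene, ptg000017l_921, is the brightest terpene synthase in every column.

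A single limonene synthase gene led the terpene synthases everywhere. The gene ptg000017l_921 (contig ptg000017l, positions 15347732 to 15350747), closest to (R)-limonene synthase of sweet orange, an enzyme that cyclizes geranyl diphosphate to limonene, had the highest FPKM of the 94 genes in all 20 libraries. It held 37.7% to 59.6% of their summed FPKM. The 3 strongest genes of a library together held 65.0% to 83.1%.

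The filter bears on how the age results can be read. Of the 35 genes that passed, 21 would have passed with the 91 d libraries alone and with the 133 d libraries alone, 12 passed only through 91 d libraries, all of them terpene synthases, and 2 only through 133 d libraries. Over all genes that passed, 3.41% did so only through 91 d libraries. A gene that passed only through the libraries of 1 age was chosen for being high at that age, so counts over the 35 genes are descriptions. The 133 d libraries counted here include those of tattered and cracked hulls, while the age comparison uses intact hulls. At 133 d, ptg000017l_785 and ptg000017l_1360 passed only with damaged hulls counted, so their age results are descriptions too. Counts over the 21 genes, which include both of these, come first below.

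Between 91 d and 133 d, most of the terpene genes read at both ages became lower in intact hulls. Of the 21 genes that passed at each age alone, 14 were lower and 3 higher at 133 d in Golden Hills (adjusted p under 0.05, limma on log2(FPKM + 1) with all 19716 tested genes), where 45.3% of all tested genes were called. In Lost Hills 12 were lower and 3 higher, where 31.7% of all tested genes were called. Of the 17629 genes of the table that passed at each age alone, 21.9% were lower and 22.8% higher in Golden Hills, and 15% and 15.7% in Lost Hills. The median log2 fold change of the 21 was -1.65 in Golden Hills and -0.77 in Lost Hills, beside -0.0269 and -0.00184 over the 17629. Over all 35 genes, 25 were lower and 4 higher in Golden Hills, and 22 and 3 in Lost Hills, where 22.1% of all tested genes were lower and 23.2% higher, and 15.7% and 16%. Of the 35 genes, 22 were lower in both cultivars, 2 higher in both and 1 lower in Golden Hills and higher in Lost Hills.

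Without replicate 2 of both 91 d groups, 13 of the 21 genes were lower and 4 higher in Golden Hills, and 11 and 3 in Lost Hills. Without Golden Hills replicate 3 at 91 d as well, a setting added after the data were seen, 12 were lower and 3 higher in Golden Hills, and 11 and 3 in Lost Hills. Of all 19716 tested genes, 8932 in Golden Hills and 6249 in Lost Hills were called with all libraries. These became 7810 and 5017 without both replicate 2 libraries, and 6441 and 4808 without all 3. Of 69 named results over all comparisons, 63 kept their call without both replicate 2 libraries. The 6 that lost it were the Golden Hills age change of ptg000017l_802, the age difference of ptg000017l_921, and the Lost Hills age change and the Golden Hills tattered change of both the DXS gene ptg000022l_1826 and the geraniol 8-hydroxylase gene ptg000017l_2204. Without all 3 libraries, 60 kept their call, and those lost in addition were the age difference of ptg000017l_802, the difference of squalene synthase between cultivars at 91 d and that of the P450 gene ptg000009l_2855 at 133 d.

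Marker lists of kernel, lignified and green tissue moved with age as well, and the outer epidermis list did so in Lost Hills. A list of 25 kernel genes (oleosins and seed storage proteins, 13 past the filter) summed to 55.5 to 99.6 FPKM in Golden Hills at 91 d and 23.6 to 29.0 at 133 d, and to 50.8 to 116 and 33.1 to 51.2 in Lost Hills. A list of 19 genes of lignified tissue (secondary-wall cellulose synthases, laccases and xylem proteases, 4 past the filter and 6 with no read) summed to 4.63 to 15.02 FPKM in Golden Hills at 91 d and 1.46 to 1.56 at 133 d, and to 5.79 to 11.7 and 0.839 to 1.52 in Lost Hills. In these 4 groups, 3 to 6 of the kernel genes and 6 to 13 of the lignified genes were at 0 in every library. A list of 20 chlorophyll-binding protein genes (16 past the filter) summed to 324 to 501 FPKM and 201 to 229 in Golden Hills, and to 308 to 411 and 213 to 282 in Lost Hills, and 2 to 3 of its genes were at 0 in every library of these groups. The outer epidermis list (8 cuticle genes, 5 past the filter) summed to 19.95 to 27.7 FPKM in Golden Hills at 91 d and 21.8 to 26.7 at 133 d. In Lost Hills it summed to 23.3 to 26.2 at 91 d and 6.30 to 12.9 at 133 d. The part of these lists in the terpene results was not tested. In such bulk samples, fewer cells of a type and less RNA per cell cannot be told apart.

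At the entry of the plastid route, DXR and the most abundant DXS gene were lower at 133 d in both cultivars, while another DXS gene was higher in Golden Hills. Of 4 DXS genes, 3 passed the filter. The ± after a log2 fold change is its standard error. The most abundant of these genes for the first step of the route, ptg000022l_1826 (contig ptg000022l, positions 23814498 to 23819208), stood at 28.8, 20.9, 24.8 and 24.8 FPKM in Golden Hills at 91 d and 6.42, 8.05 and 6.32 in intact hulls at 133 d. Its Lost Hills levels were 20.7, 22.2, 16.9 and 14.4 at 91 d and 18.4, 7.24 and 8.18 at 133 d. The Golden Hills groups did not overlap and the Lost Hills groups did. The log2 fold change was -1.70 ± 0.24 (adjusted p = 1.76e-05) in Golden Hills and -0.77 ± 0.24 (adjusted p = 0.0198) in Lost Hills, where leaving out Lost Hills replicate 1 or 2 at 91 d, or 2 or 3 at 133 d, ended the call (adjusted p = 0.0529 to 0.134). It was also lost without replicate 2 of both 91 d groups (adjusted p = 0.0629) and with only the groups compared in the fit (adjusted p = 0.0852).

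A second DXS gene, ptg000001l_1820 (contig ptg000001l, positions 22122569 to 22128066), was higher at 133 d in Golden Hills, with 3.55, 4.81, 4.18 and 4.63 FPKM at 91 d and 8.51, 6.38 and 8.17 at 133 d (log2 fold change 0.71 ± 0.13, adjusted p = 2.87e-04). Its Lost Hills values, 6.70, 5.13, 6.43 and 5.002 at 91 d and 5.82, 7.33 and 6.70 at 133 d, gave 0.16 ± 0.13 (adjusted p = 0.365). The gene closest to the type 2 DXS of rice, ptg000013l_1206 (contig ptg000013l, positions 17848755 to 17852029), stood at 2.81, 3.54, 10.6 and 28.2 FPKM in Golden Hills at 91 d and 2.88, 0.743 and 1.14 at 133 d. Golden Hills replicates 3 and 4 were far above replicates 1 and 2 at 91 d, and the age groups overlapped. The Golden Hills change was -1.84 ± 0.51 (adjusted p = 0.00700), and in Lost Hills, from 3.85, 2.31, 3.41 and 1.16 to 1.51, 0.776 and 1.28, it was -0.70 ± 0.51 (adjusted p = 0.316). A fit with only the groups compared ended the Golden Hills call (adjusted p = 0.0545).

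DXR, which makes methylerythritol phosphate, was present as 1 gene, ptg000010l_665 (contig ptg000010l, positions 12147181 to 12153285). It stood at 102, 173, 199 and 144 FPKM in Golden Hills at 91 d and 45.4, 46.0 and 50.2 at 133 d. The Lost Hills libraries went from 176, 167, 157 and 156 to 80.8, 76.5 and 88.7. Every 91 d library was above every intact 133 d library of its cultivar, with log2 fold changes of -1.65 ± 0.19 (adjusted p = 1.92e-06) in Golden Hills and -0.99 ± 0.19 (adjusted p = 6.48e-04) in Lost Hills. Without replicate 2 of both 91 d groups the changes were -1.58 and -0.98.

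The chain-length enzymes split into falling and rising genes. The farnesyl pyrophosphate synthase gene, ptg000009l_2989 (contig ptg000009l, positions 35376788 to 35380706), whose product feeds sesquiterpenes, sterols and triterpenes, had 47.1, 64.4, 79.9 and 65.5 FPKM in Golden Hills at 91 d and 32.7, 25.0 and 29.2 at 133 d. Its Lost Hills values were 40.0, 52.0, 58.5 and 47.8 at 91 d and 19.7, 23.2 and 26.04 at 133 d. The ages did not overlap in either cultivar, and the log2 fold changes were -1.11 ± 0.17 (adjusted p = 4.72e-05) in Golden Hills and -1.07 ± 0.17 (adjusted p = 1.38e-04) in Lost Hills.

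Geranylgeranyl pyrophosphate synthases make the precursor of diterpenes, carotenoids and the chlorophyll side chain. The gene ptg000013l_1723 (contig ptg000013l, positions 24658716 to 24659825) stood at 100.3, 80.9, 119 and 137 FPKM in Golden Hills at 91 d and 39.9, 30.0 and 31.2 at 133 d, and at 102, 82.5, 86.6 and 74.0 at 91 d and 61.6, 41.7 and 41.3 at 133 d in Lost Hills. It fell by age in both cultivars, with log2 fold changes of -1.65 ± 0.18 (adjusted p = 1.42e-06) and -0.84 ± 0.18 (adjusted p = 0.00193). The gene ptg000009l_2601 (contig ptg000009l, positions 32345180 to 32346464) fell more steeply, from 13.3, 22.7, 69.5 and 85.7 FPKM to 1.504, 3.91 and 4.42 in Golden Hills and from 46.1, 15.8, 57.4 and 18.7 to 9.34, 5.20 and 4.11 in Lost Hills. Its log2 fold changes were -3.23 ± 0.57 (adjusted p = 1.95e-04) and -2.16 ± 0.57 (adjusted p = 0.00796), with no overlap between the ages.

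The small subunit gene ptg000020l_1525 (contig ptg000020l, positions 42881095 to 42883063) moved the other way. In Arabidopsis the small subunit pairs with a large subunit and shifts the enzyme toward geranyl diphosphate, the monoterpene precursor. Its levels were 64.1, 50.4, 55.2 and 64.3 FPKM at 91 d and 118, 143 and 165 at 133 d in Golden Hills, and 55.6, 49.2, 61.04 and 62.2 at 91 d and 91.2, 138 and 134 at 133 d in Lost Hills. All intact 133 d libraries were above all 91 d libraries, with log2 fold changes of 1.26 ± 0.17 (adjusted p = 1.69e-05) in Golden Hills and 1.06 ± 0.17 (adjusted p = 2.15e-04) in Lost Hills. By group mean it was the most abundant supply gene at 133 d, where DXR had been at 91 d. A second small-subunit gene, ptg000022l_652 (contig ptg000022l, positions 7905093 to 7909545), averaged 0.0998 to 1.20 FPKM over the 6 groups and passed no test. The other 9 supply genes, among them the 3 large-subunit genes, stayed below the filter, and 3 of them had no read.

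**Figure D2:**
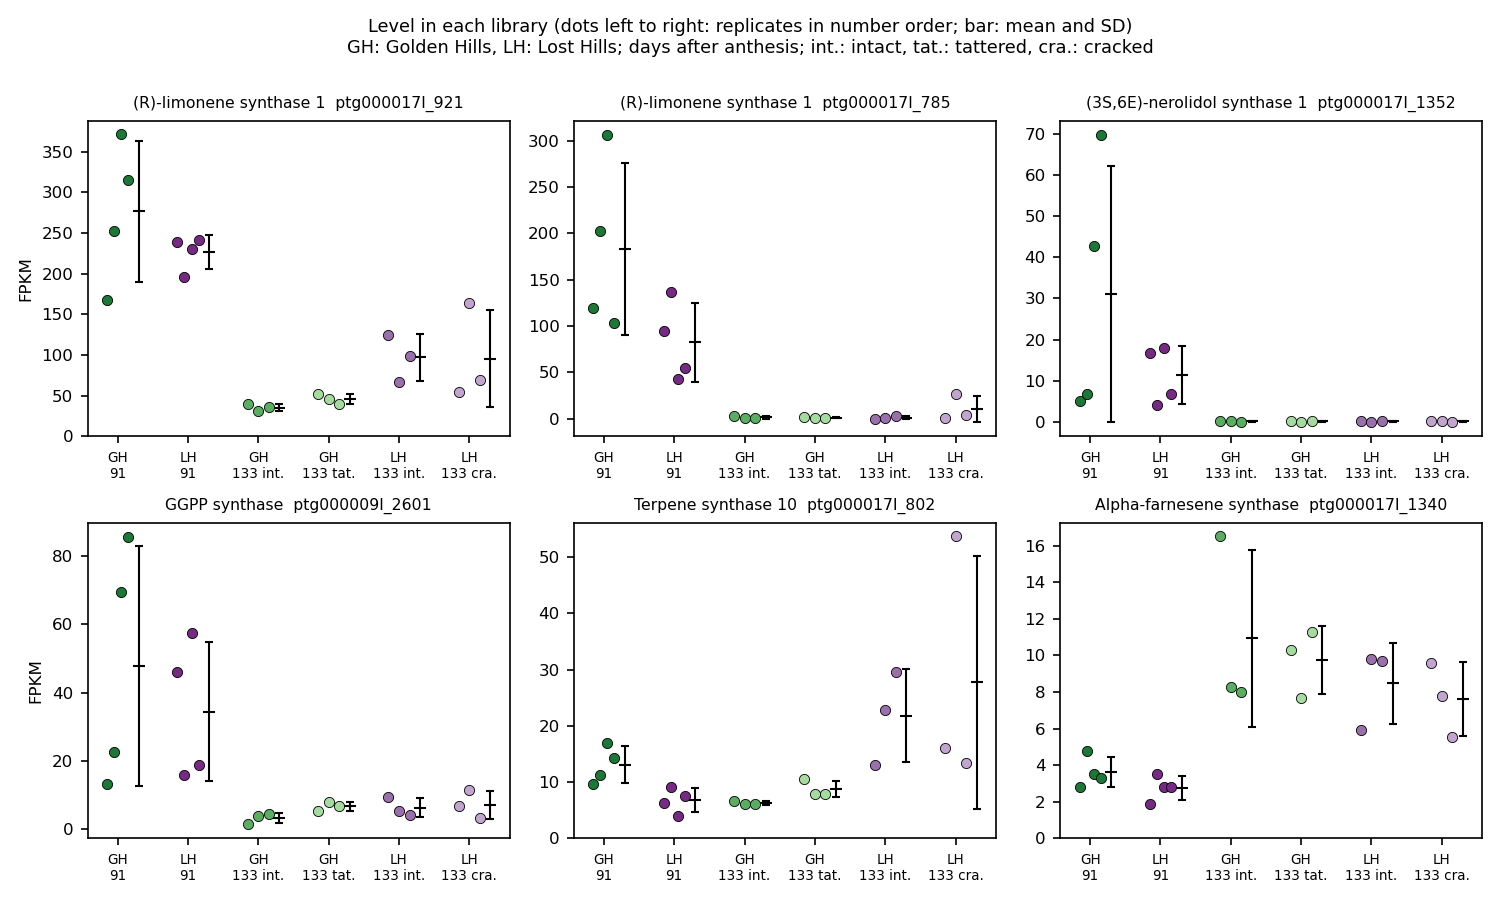
FPKM (y axis, linear) of 6 genes in each library by group (x axis), with a dot per library and a bar for the group mean and SD. The limonene synthase gene ptg000017l_785 lies between 42.9 and 306 FPKM at 91 d and below 3 FPKM in intact hulls at 133 d, while the alpha-farnesene synthase gene ptg000017l_1340 is higher in the 133 d groups than in the 91 d groups.

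Most genes with monoterpene names that were read at both ages were lower at 133 d. Of the 5 that passed the filter at each age alone, 4 were lower in Golden Hills and 4 in Lost Hills, and these counts did not change without replicate 2 of both 91 d groups or without all 3 libraries above. They were ptg000017l_921, ptg000017l_785, ptg000017l_1055 and a model beginning at ptg000017l_1057, and ptg000017l_2193 was not called. Of these, ptg000017l_785 passed at 133 d only with damaged hulls counted. The other 10 passed only through 91 d libraries, and thus by their level at that age. With them, 13 of 15 were called lower in Golden Hills and 12 in Lost Hills, and none higher. Of all tested genes, 22.1% were lower in Golden Hills and 15.7% in Lost Hills. The summed FPKM of the 36 genes was 546 ± 199 (SD, n = 4) in Golden Hills at 91 d and 42.8 ± 9.07 (n = 3) in intact hulls at 133 d. In Lost Hills it was 417 ± 36.4 (n = 4) and 115 ± 30.1 (n = 3). Over all 94 terpene synthases the sum averaged 658 ± 230.1 and 81.0 ± 18.5 in Golden Hills and 491 ± 29.0 and 189.8 ± 34.3 in Lost Hills, and these sums carry no test. Without replicate 2 at 91 d the monoterpene sum was 542 ± 243 (n = 3) in Golden Hills and 402 ± 26.1 (n = 3) in Lost Hills, and without replicate 3 as well it was 409.6 ± 111 (n = 2) in Golden Hills.

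The leading gene ptg000017l_921 stood at 168, 252, 371 and 315 FPKM in Golden Hills at 91 d and at 40.0, 30.6 and 35.4 in intact hulls at 133 d. In Lost Hills it stood at 239, 196, 230.1 and 242 at 91 d and 125, 67.0 and 99.4 at 133 d. Every 91 d library was above every intact 133 d library in each cultivar, and the 133 d level was lower in Golden Hills than in Lost Hills. The log2 fold changes with age were -2.88 ± 0.31 (adjusted p = 1.06e-06) in Golden Hills and -1.26 ± 0.31 (adjusted p = 0.00476) in Lost Hills, and -2.91 and -1.33 without replicate 2 of both 91 d groups.

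A second limonene synthase gene, ptg000017l_785 (contig ptg000017l, positions 13503466 to 13506482), had the largest change of the 35 genes in each cultivar on the log2(FPKM + 1) scale. It stood at 119, 203, 306 and 103 FPKM in Golden Hills at 91 d and at 2.77, 0.948 and 0.643 in intact hulls at 133 d. The Lost Hills values were 95.0, 137, 42.9 and 54.9 at 91 d and 0.194, 0.722 and 2.91 at 133 d. The ages were far apart in both cultivars, with log2 fold changes of -6.19 ± 0.69 (adjusted p = 1.80e-06) and -5.24 ± 0.69 (adjusted p = 2.77e-05). Of the intact 133 d libraries only Golden Hills replicate 1 and Lost Hills replicate 3 reached 1 FPKM, so its fall is a description. With voom on recovered reads its changes were -7.12 and -6.62, and those of the nerolidol synthase ptg000017l_1352 were larger, -8.45 and -6.93. Its model holds the N-terminal domain and no metal-binding domain, the part of a terpene synthase that carries the metal ions needed for catalysis.

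The genes ptg000017l_1055 (contig ptg000017l, positions 17591821 to 17594332) and a merged model of 2 predicted genes beginning at ptg000017l_1057 (contig ptg000017l, positions 17652333 to 17671406), both closest to limonene synthase of sweet orange, lie in the group of 8 on ptg000017l. The first had 19.9, 40.5, 47.5 and 32.1 FPKM in Golden Hills at 91 d and 5.09, 2.06 and 1.46 at 133 d, and 37.1, 46.6, 41.5 and 56.3 at 91 d and 6.07, 8.28 and 12.7 at 133 d in Lost Hills. Its log2 fold changes were -3.26 ± 0.40 (adjusted p = 4.81e-06) and -2.25 ± 0.40 (adjusted p = 4.20e-04), with no overlap between ages. The merged model averaged 24.6 ± 14.8 and 1.44 ± 1.16 FPKM in Golden Hills (SD, n = 4 and 3), and 29.1 ± 7.05 and 4.03 ± 1.73 in Lost Hills. Its log2 fold changes were -3.30 ± 0.59 (adjusted p = 2.20e-04) and -2.60 ± 0.59 (adjusted p = 0.00287).

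Genes closest to the gamma-terpinene synthase of lemon, which cyclizes the same precursor to another ring, made up 4 of the 5 genes past the filter in the group of 10 on ptg000017l. Both ptg000017l_2180 and ptg000017l_2192 passed only through 91 d libraries. The gene ptg000017l_2180 (contig ptg000017l, positions 38191306 to 38193703) averaged 5.14 ± 2.89 FPKM in Golden Hills and 5.46 ± 1.79 in Lost Hills at 91 d, and 0.0264 ± 0.0229 and 0.247 ± 0.369 at 133 d, with log2 fold changes of -2.45 ± 0.35 (adjusted p = 2.64e-05) and -2.37 ± 0.35 (adjusted p = 8.56e-05). The gene ptg000017l_2192 (contig ptg000017l, positions 38284739 to 38287121) had 1.45, 4.53, 6.57 and 1.47 FPKM in Golden Hills at 91 d and no read in intact hulls at 133 d. Set against a floor of 3 reads over the 133 d group, its mean was at least 88.5-fold higher at 91 d. Not all copies moved, since ptg000017l_2193 averaged 1.496 ± 0.194 FPKM at 91 d and 1.20 ± 0.273 at 133 d in Golden Hills (log2 fold change -0.19 ± 0.12, adjusted p = 0.219). Both genes closest to myrcene synthase of holm oak that passed the filter did so only through 91 d libraries. The first, ptg000017l_2211, had 2.93, 3.25, 6.14 and 4.08 FPKM in Golden Hills at 91 d and 0, 0.0406 and 0.0418 in intact hulls at 133 d, and the ages did not overlap. For ptg000017l_799 the values were 0.0782, 0.164, 2.75 and 5.73 FPKM at 91 d and 0.194, 0 and 0.0313 at 133 d. Its replicates 1 and 2 at 91 d lay within the range of the 133 d libraries, and its call (-1.15 ± 0.45, adjusted p = 0.0469) was lost in 12 of 18 alternatives, with adjusted p of up to 0.278.

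**Figure D3:**
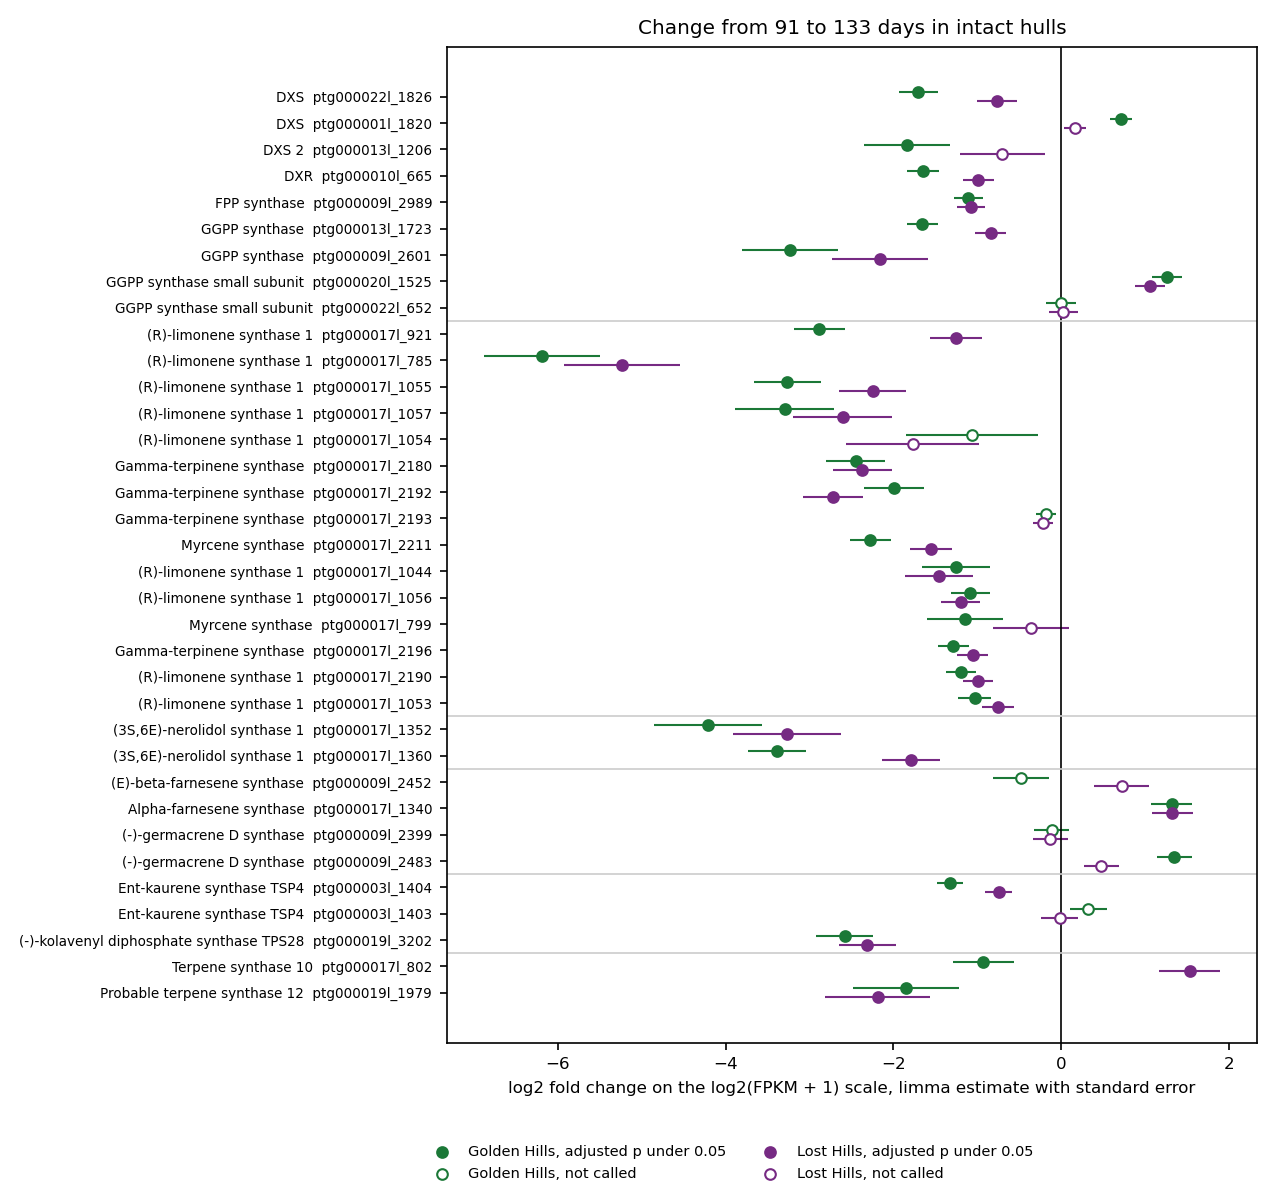
Log2 fold change from 91 d to 133 d in intact hulls (x axis) for each of the 35 genes (rows, by role), in green for Golden Hills and purple for Lost Hills, with bars for the standard error and filled points for an adjusted p under 0.05. Filled points of both cultivars lie left of 0 for 22 genes and right of 0 for 2, and those of the numbered terpene synthase ptg000017l_802 lie on either side, with -0.93 for Golden Hills and 1.53 for Lost Hills.

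Both nerolidol synthase genes past the filter, of a class that acts on farnesyl diphosphate and in strawberry gives nerolidol or linalool, were lower at 133 d in both cultivars. The filter chose ptg000017l_1352 by its 91 d level alone, so its fall is a description. At 133 d, ptg000017l_1360 passed only with damaged hulls counted, and of its intact libraries only Lost Hills replicate 1 reached 1 FPKM. The fall of ptg000017l_1360 is a description as well. The gene ptg000017l_1352 (contig ptg000017l, positions 25341202 to 25343933) stood at 5.06, 6.62, 42.9 and 69.9 FPKM in Golden Hills at 91 d and 0.0639, 0.0900 and 0 in intact hulls at 133 d. In Lost Hills it went from 16.7, 4.06, 17.9 and 6.67 to 0.189, 0 and 0.138. Its 91 d libraries spread widely, yet none came near the 133 d levels. The log2 fold changes were -4.21 ± 0.64 (adjusted p = 4.58e-05) and -3.27 ± 0.64 (adjusted p = 9.42e-04), and with voom on the recovered reads the call ended in both cultivars (adjusted p = 0.0579 and 0.0941). The gene ptg000017l_1360 (contig ptg000017l, positions 25500502 to 25503061) had 9.65, 7.91, 11.5 and 24.4 FPKM at 91 d and 0.433, 0.0406 and 0.335 at 133 d in Golden Hills, and 2.15, 4.74, 6.24 and 4.28 at 91 d and 1.39, 0.193 and 0.149 at 133 d in Lost Hills. Its changes were -3.39 ± 0.35 (adjusted p = 6.71e-07) and -1.79 ± 0.35 (adjusted p = 8.39e-04).

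Few genes with sesquiterpene names were expressed, and no fall among them passed the test. Of the 3 that passed the filter at each age alone, none was lower with age and 1 was higher, in both cultivars alike. Of all tested genes, 22.1% were lower and 23.2% higher in Golden Hills, and 15.7% and 16% in Lost Hills. The difference from the monoterpene names was not tested. The remaining gene past the filter passed only through 133 d libraries. Below the filter, the germacrene D synthase gene ptg000009l_2387 had 0.635, 0.640, 2.17 and 1.32 FPKM in Golden Hills at 91 d and 0.233, 0.0546 and 0 in intact hulls at 133 d. Another such gene, ptg000009l_2401, went from 0.819, 0.148, 1.41 and 2.14 to 0, 0.0328 and 0. For both, every Golden Hills library at 91 d stood above the intact ones at 133 d, and neither gene was tested. The alpha-farnesene synthase gene ptg000017l_1340 (contig ptg000017l, positions 25111514 to 25114188) stood at 2.82, 4.77, 3.51 and 3.32 FPKM in Golden Hills at 91 d and 16.5, 8.30 and 7.97 at 133 d. Its Lost Hills values were 1.88, 3.49, 2.83 and 2.81 at 91 d and 5.92, 9.79 and 9.71 at 133 d. The 133 d libraries were above the 91 d ones in both cultivars, with log2 fold changes of 1.32 ± 0.25 (adjusted p = 3.03e-04) and 1.32 ± 0.25 (adjusted p = 5.84e-04).

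The beta-farnesene synthase gene ptg000009l_2452 (contig ptg000009l, positions 30692053 to 30694795), the strongest of this class, averaged 11.1 ± 2.72 FPKM at 91 d and 7.74 ± 2.15 at 133 d in the Golden Hills groups, and 18.03 ± 5.95 and 29.5 ± 6.14 in the Lost Hills groups. Its changes, -0.48 ± 0.33 (adjusted p = 0.251) and 0.72 ± 0.33 (adjusted p = 0.107), did not pass the test. A germacrene D synthase gene, ptg000009l_2483 (contig ptg000009l, positions 31085195 to 31087353), which passed only through 133 d libraries, had 0.116, 0.0609, 0.174 and 0.126 FPKM in Golden Hills at 91 d and 2.09, 2.03 and 1.47 at 133 d, a log2 fold change of 1.35 ± 0.21 (adjusted p = 5.61e-05). Its Lost Hills values were 0, 0, 0.0626 and 0 at 91 d and 0.789, 0.258 and 0.249 at 133 d (0.47 ± 0.21, adjusted p = 0.0936).

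Among the diterpene names, ptg000003l_1404 (contig ptg000003l, positions 23096043 to 23105293), closest to an ent-kaurene synthase, the class that opens the gibberellin route, had 7.44, 7.79, 8.44 and 6.12 FPKM at 91 d and 2.77, 2.08 and 2.24 at 133 d in Golden Hills. In Lost Hills it had 10.5, 9.02, 10.3 and 10.5 at 91 d and 4.51, 5.90 and 6.57 at 133 d. It was lower at 133 d in both cultivars, with log2 fold changes of -1.33 ± 0.16 (adjusted p = 3.67e-06) and -0.74 ± 0.16 (adjusted p = 0.00181). Its neighbour ptg000003l_1403 averaged 2.70 ± 1.33 and 3.41 ± 0.330 FPKM in Golden Hills and passed no age test (0.32 ± 0.22, adjusted p = 0.252). A merged model of 3 predicted genes closest to a kolavenyl diphosphate synthase (contig ptg000019l, positions 30932198 to 31000030) passed only through 91 d libraries and averaged 5.90 ± 3.96 FPKM at 91 d in Golden Hills, where the intact 133 d libraries had no read. Against the floor of 3 reads over that group, the 91 d mean was at least 254-fold higher.

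The 2 numbered genes that passed the filter differed. The gene ptg000019l_1979, closest to terpene synthase 12 of castor bean, averaged 17.1 ± 15.02 and 9.52 ± 7.22 FPKM at 91 d and 2.62 ± 1.38 and 1.06 ± 0.872 at 133 d in Golden Hills and Lost Hills. Its changes were -1.85 ± 0.63 (adjusted p = 0.0233) and -2.19 ± 0.63 (adjusted p = 0.0133). The Golden Hills call was lost in 8 of 18 alternatives, among them leaving out replicate 3 or 4 at 91 d or 2 or 3 at 133 d, and the Lost Hills call in 2, voom and leaving out replicate 2 at 133 d (adjusted p of up to 0.161 and 0.0742). The gene ptg000017l_802 (contig ptg000017l, positions 13798038 to 13801987), closest to terpene synthase 10 of castor bean, went from 9.69, 11.3, 17.01 and 14.4 to 6.72, 6.02 and 6.04 FPKM in Golden Hills. In Lost Hills it went from 6.35, 9.20, 4.01 and 7.58 to 13.1, 22.8 and 29.5. It fell in Golden Hills (-0.93 ± 0.36, adjusted p = 0.0455) and rose in Lost Hills (1.53 ± 0.36, adjusted p = 0.00392), and the ages did not overlap in either cultivar. In Golden Hills this call was lost without any of replicates 2 to 4 at 91 d or of the 3 replicates at 133 d (adjusted p = 0.0583 to 0.113), and without replicate 2 of both 91 d groups (adjusted p = 0.0604). With no expression filter, quantile normalization or voom on recovered reads it was lost too (adjusted p = 0.0616 to 0.0676).

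Genes of the pathway outside the rule were read in the same fit. A list of 137 such genes covered the other steps of both supply routes, isomerases, other prenyltransferases, the entry to sterols and triterpenes, and terpenoid-modifying enzymes, and 65 of them passed the filter. With age, 24 were lower and 18 higher in Golden Hills, which is 64.6% called beside 45.3% of all tested genes. In Lost Hills 21 were lower and 12 higher, 50.8% beside 31.7%. Which of the 65 passed only through the libraries of 1 age or 1 cultivar is not given here, so these counts are descriptions. Without replicate 2 of both 91 d groups the counts were 24 lower and 16 higher in Golden Hills and 20 and 8 in Lost Hills. Of 7 genes of mevalonate steps, 5 were lower and 1 higher in Golden Hills and 4 lower in Lost Hills. Of 5 genes of later methylerythritol steps, 4 and 3 were lower and none higher. The counts of these 2 lists were the same without both replicate 2 libraries. Neither of 2 isomerase genes, which interconvert the forms of the isoprene unit, was called. The 33 terpenoid-modifying genes went both ways, with 9 lower and 11 higher in Golden Hills and 8 and 10 in Lost Hills, where 8 were higher without both replicate 2 libraries.

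HMG-CoA reductase, the regulated step of the mevalonate route, was added as a list of 3 genes after the files were seen, since the rule's wording missed it. The strongest, ptg000001l_2352, stood at 148, 208, 259 and 294 FPKM in Golden Hills at 91 d and 46.3, 38.9 and 37.9 at 133 d. The Lost Hills values were 101, 157, 162 and 118 at 91 d and 40.4, 29.8 and 35.6 at 133 d. It was lower at 133 d without overlap in both cultivars (-2.40 ± 0.20, adjusted p = 9.38e-08 and -1.89 ± 0.20, adjusted p = 4.15e-06). Of the other two, ptg000013l_2201 was lower in both and ptg000020l_1138 passed no age test (0.17 and 0.12).

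Of the terpenoid-modifying genes, the largest rises were in cytochromes P450. A premnaspirodiene oxygenase gene, ptg000009l_2855, an enzyme class that oxidizes sesquiterpenes, was listed at 0 in all 8 libraries at 91 d and stood at 32.9, 54.2 and 60.3 FPKM in Golden Hills, with 1.62, 25.5 and 18.4 in Lost Hills at 133 d. A P450 of family 71D, ptg000009l_2837, stood at 0.229, 0.240, 0 and 0.248 FPKM in Golden Hills at 91 d and 30.2, 41.2 and 39.1 at 133 d (4.997 ± 0.35, adjusted p = 1.23e-08). In Lost Hills its change was 3.88 ± 0.35 (adjusted p = 6.80e-07). At 91 d neither ptg000009l_2855 nor ptg000009l_2837 reached 1 FPKM, so both passed the filter only through 133 d libraries. Their rises are descriptions. Geraniol 8-hydroxylase is a P450 that in Catharanthus opens the iridoid branch. A gene closest to it, ptg000001l_3716, had 4.15, 12.2, 5.12 and 4.08 FPKM in Golden Hills at 91 d and 81.0, 107 and 136 at 133 d (3.98 ± 0.39, adjusted p = 3.94e-07), and rose in Lost Hills as well (2.53 ± 0.39, adjusted p = 1.06e-04).

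Genes at the entry to sterols and triterpenes went both ways in Golden Hills. Of the 15 that passed the filter, 5 were lower and 5 higher there (median log2 fold change 0.25). In Lost Hills 6 were lower and 1 higher (median 0.0418). Over all tested genes, 22.1% were lower and 23.2% higher in Golden Hills, and 15.7% and 16% in Lost Hills. Which of the 15 passed only through libraries of 1 age is not given here, so these counts are descriptions. Without replicate 2 of both 91 d groups they were 5 and 3 in Golden Hills and 5 and 0 in Lost Hills. The beta-amyrin synthase gene ptg000012l_61, which makes a triterpene skeleton, had 78.0, 96.1, 112 and 92.5 FPKM in Golden Hills at 91 d and 10.7, 7.496 and 6.35 at 133 d (-3.39 ± 0.43, adjusted p = 6.95e-06). Its change in Lost Hills was -2.32 ± 0.43 (adjusted p = 6.15e-04). A gene for beta-amyrin 28-monooxygenase, a P450 that oxidizes this skeleton, ptg000017l_763, changed by -2.92 ± 0.39 (adjusted p = 1.30e-05) in Golden Hills and -2.90 ± 0.39 (adjusted p = 3.56e-05) in Lost Hills. Squalene synthase, ptg000020l_2553, which turns farnesyl diphosphate toward sterols and triterpenes, changed by -1.48 ± 0.15 (adjusted p = 5.08e-07) and -0.94 ± 0.15 (adjusted p = 1.35e-04).

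**Figure D4:**
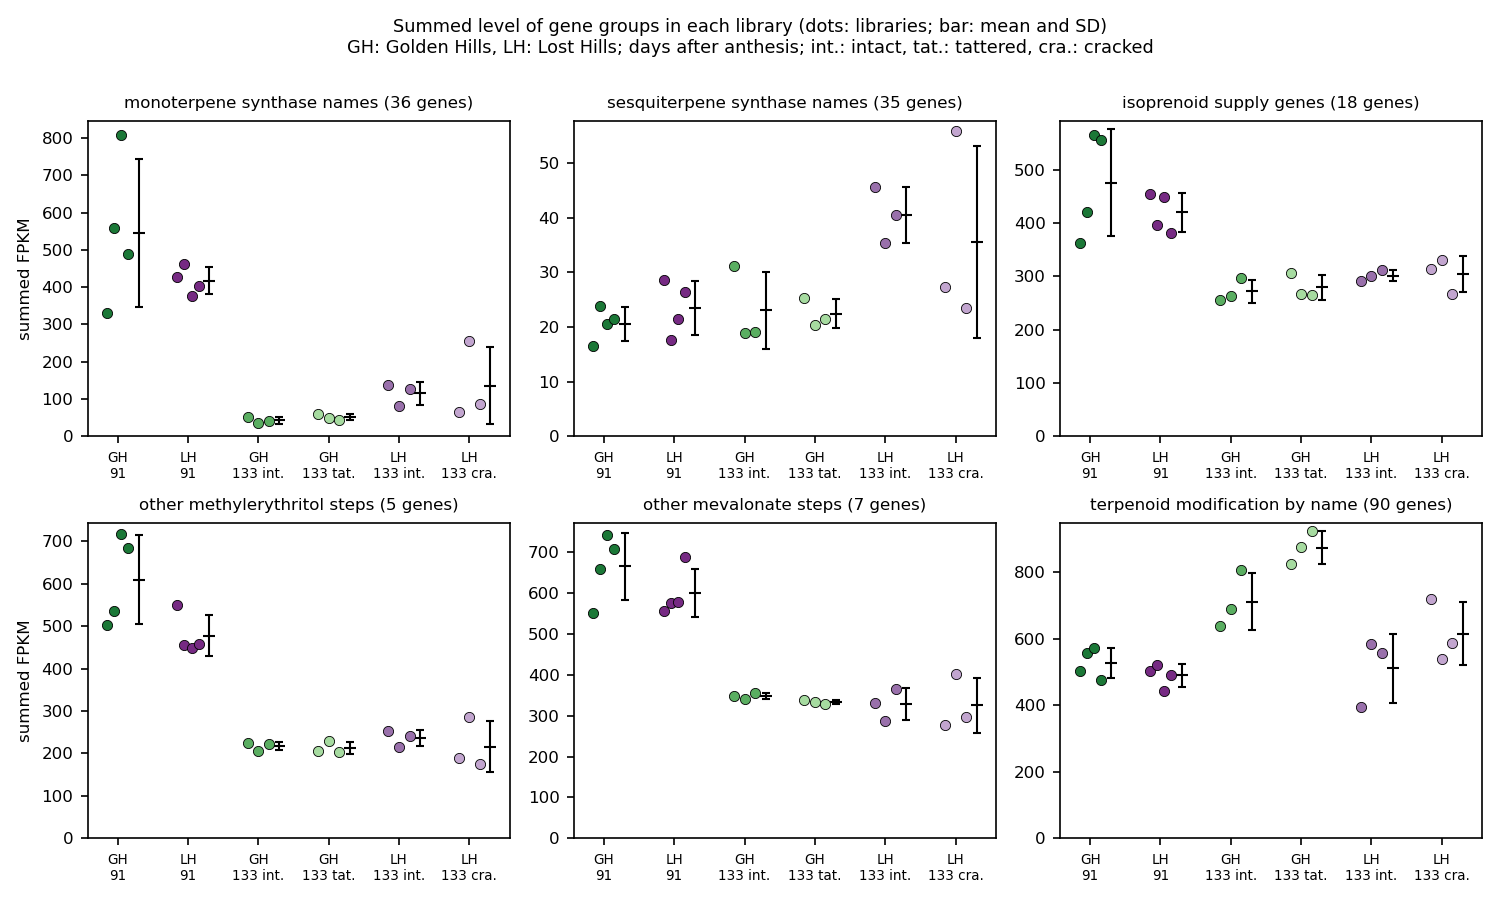
Summed FPKM (y axis, linear) of 6 gene lists in each library by group (x axis), with a dot per library and a bar for the mean and SD. The supply genes average 476 FPKM in Golden Hills and 421 in Lost Hills at 91 d and 272 and 301 in intact hulls at 133 d, while the sum over genes with sesquiterpene names averages 20.6 and 23.5 at 91 d and 23.1 and 40.5 at 133 d.

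Between cultivars at 91 d, 1 of the 35 genes was called, higher in Golden Hills, where 5.1% of all tested genes were called (2.55% higher and 2.56% lower). At an unadjusted p under 0.05 were 11 of the 35, beside 3279 of all 19716 tested genes. The called gene was the nerolidol synthase ptg000017l_1360, whose values at 91 d, given above, did not overlap between cultivars (log2 fold change 1.36 ± 0.32, adjusted p = 0.0159). The call was lost without Golden Hills replicate 4 or Lost Hills replicate 1 (adjusted p = 0.0645 to 0.0736), with a pseudocount of 0.1 (adjusted p = 0.137) and with only the groups compared in the fit (adjusted p = 0.0728). Without replicate 2 of both groups the change was 1.60 and 2 of the 35 were called, and without Golden Hills replicate 3 as well 4 were. Over all tested genes 1116 and 890 were called in these settings, beside 1006 with all libraries. Of the 65 other pathway genes, 1 was higher in Golden Hills, squalene synthase (0.54 ± 0.14, adjusted p = 0.0244), and 2 were lower, among them ptg000001l_3716 (-1.43 ± 0.36, adjusted p = 0.0244). That is 4.62% of them, beside 5.1% of all tested genes. The squalene synthase call was lost in 8 of 19 alternatives, among them leaving out Golden Hills replicate 3 or 4 or Lost Hills replicate 1, 2 or 4 (adjusted p = 0.0544 to 0.0937). The ptg000001l_3716 call was lost in 8 of 19, among them leaving out any 1 library other than Golden Hills replicate 2 (adjusted p = 0.0542 to 0.0936). Of the 3 HMG-CoA reductase genes, listed apart, ptg000001l_2352 was called higher in Golden Hills (0.73, adjusted p = 0.0293). Its values overlapped between cultivars, and the call was lost in 8 of 19 alternatives (adjusted p of up to 0.129).

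At 133 d the cultivars differed in 20% of the 35 genes, near the 16.8% of all tested genes, and at 91 d in 2.86% beside 5.1%. Of the 35 genes, 6 were lower and 1 higher in intact Golden Hills than in intact Lost Hills hulls. Over all tested genes 7.91% were lower and 8.88% higher. Of the 21 genes that passed at each age alone, 6 were lower and 0 higher. The 6 were the limonene synthases ptg000017l_921 and ptg000017l_1055, the beta-farnesene synthase ptg000009l_2452, the numbered gene ptg000017l_802, the ent-kaurene synthase ptg000003l_1404 and DXR. The germacrene D synthase ptg000009l_2483 was higher (1.01 ± 0.22, adjusted p = 0.00470). It passed the filter only through Golden Hills libraries of 133 d, and thus by its level in that cultivar, so this call is a description.

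The limonene synthase ptg000017l_921, at 40.0, 30.6 and 35.4 FPKM in Golden Hills against 125, 67.0 and 99.4 in Lost Hills, differed by -1.39 ± 0.33 (adjusted p = 0.00722). The beta-farnesene synthase gene had 9.83, 5.52 and 7.87 FPKM in Golden Hills, with 36.03, 23.9 and 28.5 in Lost Hills (-1.81 ± 0.35, adjusted p = 0.00177). The numbered gene ptg000017l_802 differed by -1.58 ± 0.39 (adjusted p = 0.00935). None of these 3 overlapped between the cultivars.

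The remaining differences were -0.98 ± 0.17 (adjusted p = 6.93e-04) for the ent-kaurene synthase gene, -0.78 ± 0.20 (adjusted p = 0.0113) for DXR and -1.43 ± 0.43 (adjusted p = 0.0287) for ptg000017l_1055. The last was lost without Golden Hills replicate 2 or 3 or Lost Hills replicate 2 or 3 (adjusted p = 0.0538 to 0.113), with only the groups compared in the fit (adjusted p = 0.0722) and with voom (adjusted p = 0.0665). The outer epidermis list, 8 cuticle genes of which 5 passed the filter, summed to 21.8 to 26.7 FPKM in intact Golden Hills and 6.30 to 12.9 in intact Lost Hills at 133 d, and 1 of its genes was at 0 in each group. The kernel list summed to 23.6 to 29.0 and 33.1 to 51.2. The part of either list in the cultivar difference was not tested.

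Among the other pathway genes, 9 were higher in Golden Hills at 133 d and 2 lower, 16.9% of the 65 beside 16.8% of all tested genes. The widest gap was in a geraniol 8-hydroxylase gene, ptg000001l_3719, at 8.51, 12.7 and 14.4 FPKM in Golden Hills, with 0.216, 0.229 and 0.369 in Lost Hills (3.31 ± 0.17, adjusted p = 1.61e-09). The groups were far apart. In intact Lost Hills hulls this gene stayed below 1 FPKM at both ages, so it passed the filter through other libraries and the gap is a description.

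The change with age itself differed between cultivars in 2 of the 35 genes, where 3.29% of all tested genes were called (1.24% with lower and 2.05% with higher values). Both changed more toward lower values in Golden Hills. For ptg000017l_802 the difference of the log2 fold changes, Golden Hills minus Lost Hills, was -2.46 ± 0.51 (adjusted p = 0.0139), a call lost without the 3 libraries of 91 d named above (adjusted p = 0.0579). For the limonene synthase ptg000017l_921 it was -1.62 ± 0.43 (adjusted p = 0.0484), and 19 of 25 alternatives ended this call, among them leaving out replicate 2 of both 91 d groups (adjusted p = 0.110) or all 3 libraries (adjusted p = 0.214). In the other pathway genes, 2 were called (3.08% of the 65), both toward higher values in Golden Hills. They were led by ptg000001l_3719 (2.92 ± 0.22, adjusted p = 9.25e-07), which voom did not call (adjusted p = 0.328). As said above, this gene stayed below 1 FPKM in intact Lost Hills hulls at both ages and passed the filter through other libraries. Its age difference is thus a description.

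Tattered and intact hulls of Golden Hills differed in few terpene genes. Of the 35, 2 were higher and 1 lower in tattered hulls, where 16.6% of all tested genes were called (9.29% higher and 7.35% lower). All 3 calls rested on small changes. The farnesyl pyrophosphate synthase gene ptg000009l_2989 had 50.3, 47.8 and 40.0 FPKM in tattered and 32.7, 25.0 and 29.2 in intact hulls (0.65 ± 0.18, adjusted p = 0.0204). The DXS gene ptg000022l_1826 had 10.98, 13.9 and 13.0 FPKM in tattered and 6.42, 8.05 and 6.32 in intact hulls (0.78 ± 0.25, adjusted p = 0.0424). The ent-kaurene synthase gene ptg000003l_1403, lower in tattered hulls, had 1.96, 1.46 and 1.65 FPKM and 3.64, 3.54 and 3.03 in intact ones (-0.71 ± 0.24, adjusted p = 0.0475).

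The tattered and intact groups did not overlap in these 3 genes. Between 0 and 2 of the 35 genes were called when a tattered or intact library was left out, beside 1689 to 2777 of all tested genes. The farnesyl pyrophosphate synthase call was lost without intact replicate 2 or tattered replicate 1 or 2 (adjusted p = 0.0663 to 0.0759), and the DXS call without intact replicate 1 or 3 or any tattered replicate (adjusted p = 0.0538 to 0.138). Both were lost on TPM (adjusted p = 0.0975 and 0.106) and after quantile normalization (adjusted p = 0.0772 and 0.0693). The limonene synthase ptg000017l_921 stood at 52.4, 45.3 and 39.4 FPKM in tattered hulls, a change of 0.36 ± 0.33 (adjusted p = 0.494). The ptg000003l_1403 call was lost in 9 of 17 alternatives, leaving out any 1 of the 6 libraries among them (adjusted p of up to 0.148). HMG-CoA reductase ptg000001l_2352 was higher in tattered hulls, at 62.5, 61.6 and 71.4 FPKM (0.66 ± 0.22, adjusted p = 0.0480), a call lost in 12 of 17 alternatives, which include each of the 6 libraries left out (adjusted p of up to 0.169). Of the 65 planned pathway genes 1 was called (1.54%), the geraniol 8-hydroxylase gene ptg000017l_2204 (-0.93 ± 0.30, adjusted p = 0.0434). It was lost in 10 of 17 alternatives, among them leaving out any intact replicate or tattered replicate 2 or 3 (adjusted p = 0.0587 to 0.176). The outer epidermis list summed to 33.5 to 42.6 FPKM in tattered hulls, above the 21.8 to 26.7 of intact ones, and the kernel list to 27.0 to 48.5 against 23.6 to 29.0. In the tattered group 8 kernel genes and none of the epidermis list were at 0, beside 6 and 1 in the intact group. The part of these lists in the tattered results was not tested.

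**Figure D5:**
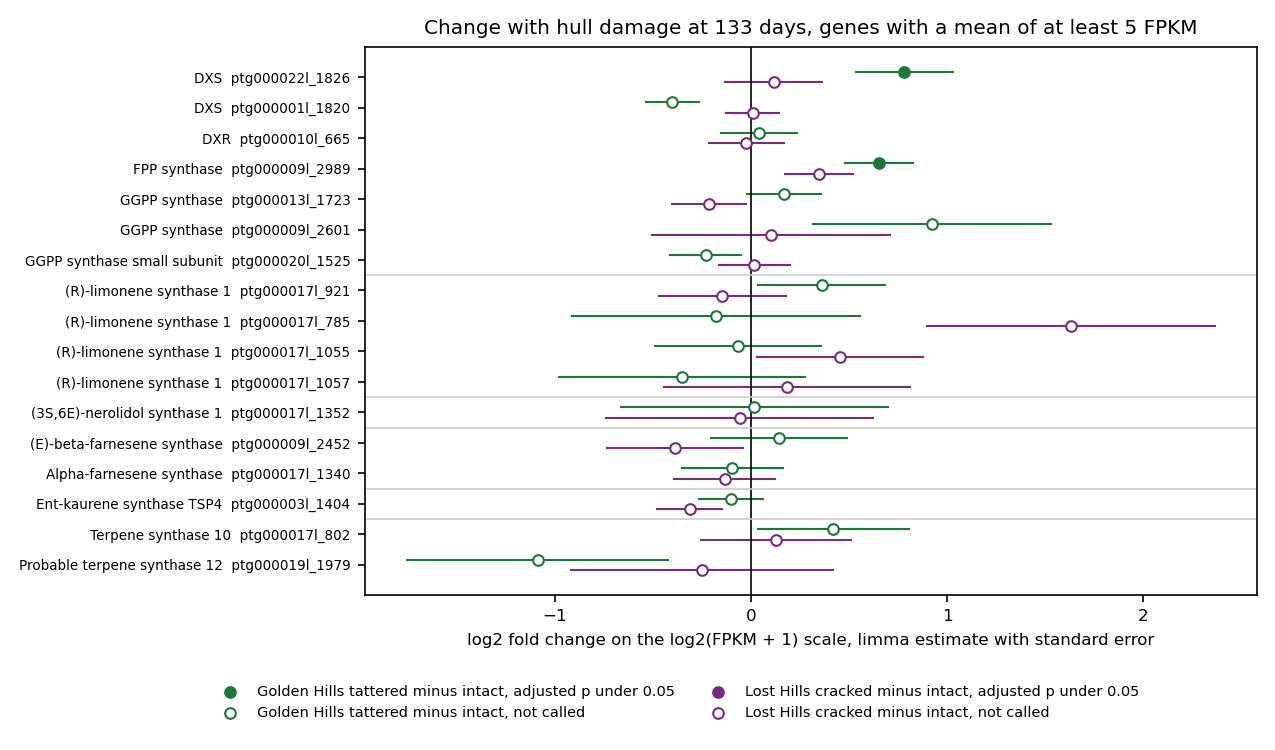
Log2 fold change with hull damage at 133 d (x axis) for the 17 of these genes that average 5 FPKM or more (rows, by role), in green for tattered against intact Golden Hills and purple for cracked against intact Lost Hills, with bars for the standard error. The filled points, with an adjusted p under 0.05, are the DXS gene ptg000022l_1826 and farnesyl pyrophosphate synthase in Golden Hills, and the widest Lost Hills change, 1.63 for ptg000017l_785, is not called.

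In Lost Hills, limma called 0 of the 35 genes between cracked and intact hulls, where 1.56% of all tested genes were called. At an unadjusted p under 0.05 were 2 of the 35, beside 1730 of all 19716 tested genes. Voom on recovered reads called 0 of the 35 and 228 of all tested genes. The summed terpene synthase FPKM was 118, 378 and 134 in cracked hulls and 209, 150.2 and 210.2 in intact ones. Cracked replicate 2 stood above the rest. The limonene synthase ptg000017l_921 had 53.9, 164 and 68.7 FPKM in cracked hulls, and ptg000017l_785 had 0.589, 26.4 and 4.52, where intact hulls had 0.194, 0.722 and 2.91. The change of the latter was 1.63 ± 0.74 (adjusted p = 0.519).

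Cracked replicate 2 was the highest of the 3 cracked libraries in 26 of the 35 genes (74.3%), beside 32.8% of all tested genes. It was above the other 5 Lost Hills libraries of 133 d in 21 of the 35 (60.0%), beside 12.5% of all tested genes, and below all of them in 0, beside 12.9%. Among the 15 monoterpene names it was above all in 11. This library was singled out after its terpene synthase sum was seen, so these counts are descriptions. Neighbouring copies among the genes may share reads. The kernel list summed to 106.8 FPKM in this library, 31.8 and 78.4 in the other cracked libraries and 33.1 to 51.2 in intact ones, and its part in these levels was not tested. Without cracked replicate 2, limma again called 0 of the 35 genes, and 1 without cracked replicate 1, beside 552 and 427 of all tested genes. The outer epidermis list summed to 17.2 to 29.7 FPKM in cracked and 6.30 to 12.9 in intact hulls, and its part was not tested either.

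Whether tattering in Golden Hills and cracking in Lost Hills moved the genes differently was tested by the difference of the changes. It called 0 of the 35 genes in limma, where 0.994% of all tested genes were called. None of the 35 had an unadjusted p under 0.05, beside 2804 of all 19716 tested genes. Voom called 0 of the 35 and 49 of all tested genes. Each side kept its own intact group, and the cultivar and the kind of split cannot be told apart in this difference. For the farnesyl pyrophosphate synthase gene the changes were 0.65 in tattered and 0.35 ± 0.18 (adjusted p = 0.641) in cracked hulls. For the DXS gene ptg000022l_1826 they were 0.78 and 0.12 ± 0.25 (adjusted p = 0.981).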

How the data were processed

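RNA of hull tissue (exo-mesocarp) was sequenced by Novogene in 20 libraries of 6 groups, from polyadenylated RNA in libraries that mark strand, per the labels' protocols. The submitters' processing notes name HISAT2 2.0.5, StringTie 1.3.3b and featureCounts 1.5.0-p3. The authors deposited FPKM per gene. The genome build and the counting settings, strand included, are not given in the sources used here, so reads of overlapping or antisense genes cannot be told apart.

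Whole reads were recovered from the deposited FPKM and gene lengths: 100.0% of values lay within 0.01 of a whole number, with 16116971 to 18609861 reads per library. The 19716 genes that reached 1 FPKM in 3 or more libraries were tested on log2(FPKM + 1), pseudocount 1, in 1 limma fit (version 3.58.1, R 4.3.3) of all libraries with trend, without a replicate block, and p-values were adjusted over all tested genes by Benjamini-Hochberg. Fold changes on this scale understate those of low genes. Alternatives were a pseudocount of 0.1, no filter, library totals, TPM, quantile normalization, array weights, only the groups compared, voom on recovered reads, a replicate block, and leaving out libraries. Counts over genes past the filter at each age alone, and leaving out 3 libraries of 91 d together, were added after the data were seen. So were the counts for Lost Hills cracked replicate 2. Values named TPM were brought to the mean summed FPKM of the libraries, so that the pseudocount kept its weight. Tables and figures were made in Python 3.11.15.

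Named genes were the supply genes past the filter, the 8 strongest terpene synthases, and, for each comparison, the called members reaching 5 FPKM in their highest group, at most 5 per direction. Of other pathway genes, each comparison gave the called gene with the largest rise and the largest fall. The genes ptg000009l_2483, ptg000003l_1403, ptg000019l_1979, ptg000019l_3202 (the kolavenyl model), ptg000017l_2193, ptg000017l_2211, ptg000017l_799, ptg000009l_2387, ptg000009l_2401 and the HMG-CoA reductases were named after their values were seen. The members, the gene lists and the markers were chosen with earlier results of these data known. RefSeq's pistachio table shares 0 identifiers with the files, and no sequence is shown.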

Additional observations from a re-analysis of the deposited data

Results flagged for a closer look

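Only the 91 d groups were examined for a lone library, on FPKM. In 7 of 58 such groups of named genes, the highest or lowest library stood far from the others by Dixon's test. Chance would flag about 1 in 20, but this rate does not hold for ptg000001l_3719 and ptg000009l_2837, whose values there were at or near 0. The library Lost Hills replicate 2 at 91 d, 1 of 3 libraries with reads at genes marking the other cultivar, was the outlying library for 3 genes. Its values were 9.02 FPKM for the ent-kaurene synthase gene ptg000003l_1404, below the other 3, 19.8 FPKM for the geraniol 8-hydroxylase gene ptg000001l_3716, and 0.136 FPKM for ptg000001l_3719, which the other 3 libraries listed at 0. Golden Hills replicate 2 at 91 d, another of the 3, was the outlying library for ptg000001l_3716, at 12.2 FPKM. The remaining values were 102 FPKM for squalene synthase ptg000020l_2553 in Lost Hills replicate 3 at 91 d, and, for the P450 gene ptg000009l_2837 at 91 d, 0 FPKM in Golden Hills replicate 3, the last of the 3, and 0.0639 FPKM in Lost Hills replicate 1.

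For 3 named genes the change with age differed between the cultivars by the test of the difference. The log2 differences, Golden Hills minus Lost Hills, were -2.46 for the numbered terpene synthase ptg000017l_802, -1.62 for the limonene synthase ptg000017l_921 and 2.92 for the geraniol 8-hydroxylase gene ptg000001l_3719, with limma adjusted p of 0.0139, 0.0484 and 9.25e-07. Without the 3 libraries the first was at 0.0579 and the second at 0.214. Voom did not call the third (adjusted p = 0.328), and by the filter limit given above its difference is a description.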

How the results depend on the processing

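Of 69 named results, 48 kept their call in every alternative run, and none reversed. The labels do not say whether replicate numbers pair libraries of different groups. Deviations of same-numbered libraries correlated at -0.174 to 0.223, and at 0.223, 0.152 and 0.0776 for tattered and intact Golden Hills hulls. Groups this small cannot settle whether the libraries are paired. With only the groups compared, 9 of 69 named calls were lost, and the called members were 0 instead of 1 between cultivars at 91 d, 6 instead of 7 at 133 d and 3 instead of 2 for the age difference. A replicate block added to those fits, on shared numbers only, lost 14 calls and gave 0, 3 and 1. Over all tested genes the calls in these 3 comparisons were 1006, 3310 and 649 in the main fit. They became 796, 1644 and 625 with only the groups compared, and 0, 765 and 235 with the block. For tattered against intact hulls, the 3 called members became 5 with a pseudocount of 0.1 and 5 with array weights, while the 3281 calls over all genes became 3219 and 5788. Between cultivars at 91 d, the single call became 0 with a pseudocount of 0.1, 5 with no filter, 6 with array weights, 2 without replicate 2 of both 91 d groups and 4 without Golden Hills replicate 3 as well. In the same order, the 1006 calls over all genes became 912, 1038 (of 27903 genes tested), 1730, 1116 and 890. For the age difference, 2 calls became 1 with a pseudocount of 0.1, no filter, quantile normalization, voom, or without replicate 2 of both 91 d groups, 9 with array weights and 0 without Golden Hills replicate 3 as well. In the same order, the 649 calls over all genes became 567, 551 (of 27903 genes tested), 618, 473, 411, 2024 and 262. Leaving out 1 library at a time gave 0 to 2 calls for tattered hulls, 0 to 1 for cracked, 0 to 2 and 6 to 7 between cultivars at 91 d and 133 d, 25 to 29 and 23 to 26 with age in Golden Hills and Lost Hills, and 1 to 3 for the age difference. Over all genes, in the same order, it gave 1689 to 2777, 173 to 552, 617 to 1094, 2121 to 3071, 7709 to 8814, 4455 to 6021 and 375 to 685 calls. The causes were not tested.

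Summed terpene synthase FPKM in Lost Hills at 91 d moved from 491 to 526 (TPM) and 524 (library totals), and in tattered hulls from 88.9 to 75.3 (TPM). Supply sums moved from 279.7 to 237 (TPM) and 252 (library totals) in tattered hulls, and from 301 to 314 and 313 in intact Lost Hills at 133 d. Over all tested genes, scaling shifted the median change with age in Golden Hills from -0.0255 to -0.168 (TPM) and -0.164 (library totals), at 133 d between cultivars to -0.102 and -0.116, and in tattered hulls to -0.122 (TPM), all in log2 units. With groups of 3 or 4 libraries and few reads in most terpene synthases, small changes of low genes could not be seen. Genes closest in sequence may share reads.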

Other observations

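Some terpene genes shared an order of libraries within the 91 d groups. After the values were seen, genes were counted in which Golden Hills replicates 3 and 4 both stood above replicates 1 and 2 and Lost Hills replicates 1 and 3 both stood above replicates 2 and 4. This held for 6 of the 35 tested genes (17.1%), for 5.82% of all tested genes and for 2 of 65 other pathway genes. The 6 were both geranylgeranyl pyrophosphate synthase genes (ptg000013l_1723 and ptg000009l_2601), the type 2 DXS gene ptg000013l_1206, the nerolidol synthase ptg000017l_1352, the numbered terpene synthase ptg000019l_1979 and the myrcene synthase ptg000017l_799. For ptg000019l_1979 the values were 2.78, 5.58, 27.8 and 32.1 FPKM in Golden Hills, with 10.4, 4.17, 19.4 and 4.08 in Lost Hills. The labels give no tree or position for these libraries, and the order has no test.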
